A study of Homo sapiens with 2 samples.

Results

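Replication-dependent histone genes supply the histones that package newly copied DNA. They were taken here by symbol: every row of the count tables named H1-1 to H1-6 or with a symbol starting H2AC, H2BC, H3C or H4C and a number. This gave 59 of 22474 listed genes, which were 5 linker histone (H1), 16 H2A, 16 H2B, 9 H3 and 13 H4 genes. H1-6 was not analysed here, and 1 member, H2BC27P, carries a pseudogene symbol. By RefSeq positions (GRCh38.p14), 47 members lie on chromosome 6, 11 on chromosome 1 and 1 on chromosome 12.

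The cells were H9, an established human embryonic stem cell line. The reference state was 16 ESCs (embryonic stem cells), and the other state was 25 ffEPSCs (feeder-free extended pluripotent stem cells) converted from H9 ESCs, both read with Smart-seq2, a full-length method that copies RNA carrying a poly(A) tail and uses no molecular barcodes. Each state was 1 deposited sample of 1 line, so no test between states was possible, and every difference below describes these 2 libraries. Passage, medium and conversion time were not given in the sources used here.

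Histone octamers hold 2 copies each of H2A, H2B, H3 and H4, and linker histone H1 binds the DNA that enters and leaves the octamer. Genes of this class are transcribed mainly in S phase, under NPAT and, for H4 genes, HINFP. Most of their mRNAs end in a short stem-loop bound by SLBP instead of a poly(A) tail, although some of these genes also give polyadenylated transcripts. A method that primes on poly(A) therefore sees only part of this RNA, and a level below is the level of the RNA captured. H1-1 encodes a linker histone known from fewer tissues than H1-2 to H1-5, which are found in most dividing cells.

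The promoters of 3 linker genes are shown because H1-1 was far higher in ffEPSCs, while H1-2 and H1-3, its nearest matches from cell to cell, were close to level between the libraries. Each line holds the 250 bases before the RefSeq start (GRCh38.p14), 5′ to 3′ on the gene's own strand, which is the minus strand for all 3. They are chr6:26017788-26018037 for H1-1, chr6:26056471-26056720 for H1-2 and chr6:26234988-26235237 for H1-3. Capitals mark the CCAAT box, the TATA box written as TATAAA, and AAACACA, an element of linker histone promoters, all searched on both strands.
H1-1: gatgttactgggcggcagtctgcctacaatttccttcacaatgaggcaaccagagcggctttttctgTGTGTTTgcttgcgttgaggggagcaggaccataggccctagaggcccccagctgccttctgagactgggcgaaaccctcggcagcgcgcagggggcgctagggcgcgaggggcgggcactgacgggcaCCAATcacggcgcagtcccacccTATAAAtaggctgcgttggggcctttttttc
H1-2: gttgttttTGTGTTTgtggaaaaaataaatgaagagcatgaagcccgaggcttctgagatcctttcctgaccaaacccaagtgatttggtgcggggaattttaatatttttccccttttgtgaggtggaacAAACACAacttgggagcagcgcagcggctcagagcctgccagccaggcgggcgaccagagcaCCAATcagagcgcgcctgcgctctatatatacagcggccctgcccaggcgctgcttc
H1-3: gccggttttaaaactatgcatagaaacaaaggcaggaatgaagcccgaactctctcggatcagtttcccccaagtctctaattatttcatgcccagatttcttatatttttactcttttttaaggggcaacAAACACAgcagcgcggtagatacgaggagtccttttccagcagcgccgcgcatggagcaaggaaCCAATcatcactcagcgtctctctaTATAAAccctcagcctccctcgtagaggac
CCAAT began 54 bases before the start in H1-1, 57 in H1-2 and 55 in H1-3. AAACACA began 119 bases before the start in both H1-2 and H1-3, and 117 in H1-4 and H1-5. In H1-1 those letters were found once, on the other strand (TGTGTTT) and farther off, 183 bases before the start. TATAAA was found in H1-1, H1-3 and H1-4. Over 27305 promoters of the same length, CCAAT occurred in 33.0%, TATAAA in 11.1% and AAACACA in 4.95%. Of the 53 members with a promoter entry, 83.0% held CCAAT, 66.0% TATAAA and 9.43% AAACACA, the last being the 5 linker genes. H2AC12, H2BC27P, H3C11, H3C12, H4C1 and H4C3 had no entry. These matches describe letters and not binding.

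The 3′ stem-loop is shown because it is the usual end of these mRNAs, while the method captures polyadenylated RNA. Longer polyadenylated transcripts can contain the stem-loop too. A search of the bases after the stop codon in GENCODE version 29 transcripts found a 16-base stem-loop in 26 of the 56 members with a transcript, in 6 forms. The 3 commonest follow as DNA letters, with the loop of 4 bases in capitals.
Form in 12 members, among them H2AC6, H2AC25, H2BC9, H2BC21 and H3C10: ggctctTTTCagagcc
Form in 5 H4 members, H4C2, H4C5, H4C8, H4C11 and H4C16: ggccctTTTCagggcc
Form in 4 members, H2BC4, H2BC5, H2BC7 and H3C8: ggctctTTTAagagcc
For 26 members every annotated coding transcript stops at the stop codon, so that the search could not reach this part of them.

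The libraries held 265412149 gene counts for ESCs (11714517 to 19965639 per cell) and 374101290 for ffEPSCs (12507469 to 17811209 per cell), and shared 0 cell names. Levels are summed counts divided by the gene counts of the library and scaled to 1000000 (CPM), and differences are log2 ratios of ffEPSC over ESC after adding 1 CPM, which understates the fold of low genes. A gene is called 2-fold higher or lower on that scale. Intervals are at 95% and cover counting error only. Cell names carry a set number whose meaning was not given: both states occur in sets 1 and 3 (7 and 9 ESCs, 3 and 2 ffEPSCs), and ffEPSCs alone in sets 2 and 4 (9 and 11). The 10 pluripotency markers all passed a floor of 5 CPM in at least 1 library, and summed to between 3985 and 8223 CPM over ESCs and between 4878 and 7831 CPM over ffEPSCs. A group of 4 ESCs stood apart with low POU5F1 and were also the shallowest of that library. Of 8 fibroblast markers, 4 passed the floor and 3 of them were at least 2-fold lower in ffEPSCs (S100A4, COL1A1 and THY1). Among all genes past the floor, 5.84% were lower. The other marker past the floor, COL1A2, was at 19.2 and 15.3 CPM (-0.31). The list summed to 107.5–657 CPM over ESCs and 32.5–405.5 CPM over ffEPSCs. Most of that sum was THY1 alone, at 382 CPM for ESCs and 169 CPM for ffEPSCs, and COL3A1, LUM and DCN were not analysed. The part of these markers in the histone results was not tested. Of the lymphoid and germ cell markers, 2 and 3 of 8 were analysed and none reached the floor.

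Over all 59 members the 2 libraries were close, at 1491 CPM (1486–1495) for ESCs and 1569 CPM (1565–1573) for ffEPSCs, a log2 ratio of 0.073. Single cells spread far more widely than that, from 422 over a median of 1309 to 5064 CPM for ESCs and from 387 over 1325 to 3699 CPM for ffEPSCs. Most of both sums was 1 gene, H4C3, which held 83.4% of all member counts in ESCs and 82.1% in ffEPSCs. Without H4C3 the sum was 247 and 281.5 CPM (log2 ratio 0.19), and without H4C3 and H1-1 it was 246 and 173 CPM (-0.50). Both exclusions were chosen after the values were seen.

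The 5 histone types differed in direction. Linker genes together were at 79.7 CPM (78.6–80.8) for ESCs and 184.9 CPM (183.5–186.2) for ffEPSCs, a log2 ratio of 1.20. H4 was nearly level (1258 and 1300 CPM, 0.047). The other core types were lower in ffEPSCs: H2A at 80.4 and 45.6 CPM (-0.80), H2B at 47.9 and 28.4 CPM (-0.74) and H3 at 24.4 and 9.82 CPM (-1.23). The same directions were seen within set 1 and within set 3 for H1 (1.43 and 1.997), H2A (-0.86 and -0.61), H2B (-0.081 and -0.95) and H3 (-1.75 and -1.76). H4 was 0.26 and 0.995 higher there on the log2 scale.

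Most members were low. Of the 59, 16 reached 5 CPM in at least 1 library, 43 did not, and 20 stayed below 1 CPM in both. Among the 16, 1 was at least 2-fold higher in ffEPSCs (6.25%, against 8.3% of the 10825 genes past the floor) and 4 were at least 2-fold lower (25%, against 5.84%). The higher gene was H1-1 and the lower ones were H2AC6, H2BC5, H2BC11 and H3C10. Their median log2 ratio was -0.31, beside 0.038 for all genes past the floor, with 12 below zero and 4 above. H1-1 was also the 1 member for which every ffEPSC cell exceeded every ESC cell, which held for 0.102% of genes past the floor. No member lay wholly lower, against 0.111% of genes. Under the floor, H2AC8, H3C6, H3C7 and H3C8 were at least 2-fold lower as well, so that with no floor 8 members were lower (5.04% of all listed genes were) and 1 higher (6.9%). At a floor of 20 CPM only H2AC6 was lower (4.07% of genes were) and only H1-1 higher (5.54%). Of the 16, 1 was at least 2-fold higher within set 1 (H1-1) and 3 within set 3 (H1-1, H1-2 and H4C3). With the floor applied to the cells of the set alone, 2 members were higher in set 1 (17.8% of genes were) and 5 in set 3 (12.7%), the others passing only through the few ffEPSCs there.

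**Figure D1:**
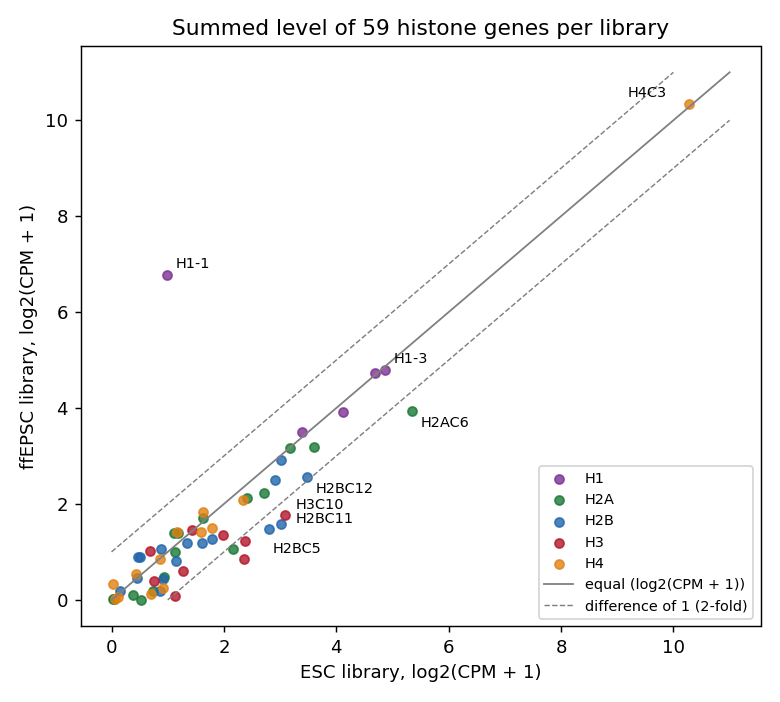
Level of each of the 59 histone genes in the ESC library (x axis) and the ffEPSC library (y axis), both as log2(CPM + 1), coloured by histone type; the solid line marks equal levels and the dashed lines a difference of 1 (2-fold). H1-1 lies far above the lines at 0.980 and 108 CPM, H4C3 lies on the line of equality at the top, and most core genes lie below it.

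Among the 5 linker members only H1-1 passed 2-fold between the libraries. H1-1 was at 0.980 CPM (0.864–1.11) for ESCs and 108 CPM (107–109) for ffEPSCs, which is 110-fold and a log2 ratio of 5.78. In ESCs its lowest and median cells were at 0 and its highest at 8.88 CPM, and 10 of the 16 cells had no read. In ffEPSCs the lowest cell was at 9.22, the median at 81.4 and the highest at 317 CPM. The groups did not overlap, although the lowest ffEPSC cell stood only just above the highest ESC. At least 1 CPM was seen in 3 of 16 ESCs and 25 of 25 ffEPSCs.

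H1-1 kept its direction in each set that held both states, at 0.506 and 95.1 CPM in set 1 (5.996) and 1.34 and 214 CPM in set 3 (6.52). The sets of ffEPSCs alone were at 60.3 CPM (set 2) and 129 CPM (set 4), so that the ffEPSC level itself varied several-fold between sets. The highest ESC in H1-1 was among the 4 low in POU5F1, and 2 of these 4 and 1 of the other 12 reached 1 CPM. Without these 4 cells H1-1 was at 0.468 CPM for ESCs and the log2 ratio was 6.22.

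H1-2, one of the widely expressed linker histones, was at 24.9 CPM for ESCs (cells from 5.95 over 22.2 to 62.9) and 25.6 CPM for ffEPSCs (0 over 19.1 to 82.9), a log2 ratio of 0.035. H1-3 was at 28.0 CPM for ESCs (0 over 20.1 to 118) and 26.7 CPM for ffEPSCs (0 over 20.9 to 79.0), a ratio of -0.069. For both genes the cells of the states overlapped over most of their range. H1-4 was at 9.44 and 10.4 CPM (0.12), with cells up to 56.5 and 40.8 CPM. H1-5 was at 16.3 and 14.1 CPM (-0.20), with cells up to 74.6 and 59.9 CPM. Summed without H1-1, the linker genes stood at 78.7 CPM for ESCs and 76.7 CPM for ffEPSCs, a log2 ratio of -0.036. That ratio was 0.28 in set 1 and 0.78 in set 3, where H1-2 alone differed by 1.15.

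The makeup of linker histone RNA differed accordingly. H1-1 gave 1.23% of linker counts in ESCs (Clopper-Pearson 1.09–1.39%) and 58.5% in ffEPSCs (58.1–58.9%). In ffEPSC cells its share ran from 42.9% over 59.4% to 80.8%, and it was the highest linker gene in 25 of 25 ffEPSCs and 0 of 16 ESCs. H1-3 led in the ESC library with 35.2%, followed by H1-2 with 31.3%, and these were 14.4% and 13.8% in ffEPSCs. H1-5 went from 20.4% to 7.62% and H1-4 from 11.8% to 5.61%. Per kb of coding length, H1-1 stood at 1.52 CPM per kb in ESCs and 168 in ffEPSCs, while H1-2 stood at 39.0 and 40.0, H1-3 at 42.3 and 40.2, H1-5 at 24.03 and 20.8 and H1-4 at 14.4 and 15.8. H1-1 was thus the lowest of the linker genes in 1 library and the highest in the other, while the order of the other 4 (H1-3, H1-2, H1-5, H1-4) was the same in both. H1-3 and H1-2 stood next to each other with a difference that was small beside the spread of cells.

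**Figure D2:**
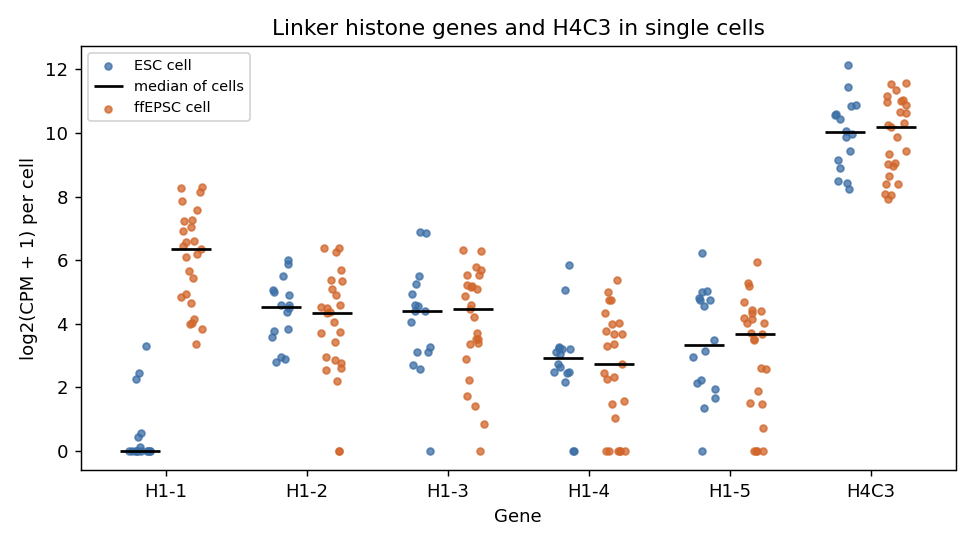
Level per cell, as log2(CPM + 1), of the 5 linker histone genes and H4C3 in 16 ESCs and 25 ffEPSCs; each point is a cell and the black bars are medians of cells. The states separate for H1-1, with a median of 0 CPM for ESCs and 81.4 CPM for ffEPSCs, and overlap for the other genes.

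Core histone RNA was dominated by H4C3, an H4 gene on chromosome 6. Its level was 1244 CPM for ESCs (cells from 303 over 1037 to 4491) and 1287 CPM for ffEPSCs (240 over 1157 to 3047), a log2 ratio of 0.050. Per kb of coding length it was at 4025 and 4166 CPM per kb, against 102 and 36.7 for H2AC6, the next core gene in the ESC library. H4C3 held 98.8% of H4 counts in ESCs and 99.0% in ffEPSCs. All H4 genes encode the same or nearly the same protein and have close sequences, and how reads matching several copies were assigned was not given, so the division between H4 genes is uncertain. H4C5 was at 4.09 and 3.22 CPM and H4C8 at 2.10 and 2.56 CPM. The other 12 H4 genes together stood at 14.8 CPM for ESCs and 12.8 CPM for ffEPSCs.

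H2AC6 was the highest H2A gene of both libraries and lower in ffEPSCs, at 39.7 against 14.3 CPM (log2 ratio -1.41). ESCs ran from 0 over 32.0 to 85.1 CPM and ffEPSCs from 0 over 5.28 to 97.6 CPM. The states overlapped, since the highest ffEPSC stood above the highest ESC, but 1 CPM was reached in 13 of 16 ESCs and 15 of 25 ffEPSCs. Within sets the ratio was -2.12 and -1.85. The next H2A genes differed less: H2AC20 was at 11.2 and 8.12 CPM (-0.42), and H2AC25 at 8.003 and 7.97 CPM (-0.0051).

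Among H2B genes, H2BC12 was highest in ESCs at 10.1 CPM and at 4.92 CPM for ffEPSCs (-0.91, with -1.78 and -3.64 within sets). H2BC11 was at 7.13 and 1.97 CPM (-1.45). Its cells ran from 0 over 5.82 to 25.3 CPM for ESCs and from 0 over 0 to 19.0 CPM for ffEPSCs, and 11 of 16 and 5 of 25 cells reached 1 CPM. This gene did not keep its difference within set 1 (0.071) or, past 2-fold, within set 3 (-0.49). H2BC5 was at 5.97 and 1.77 CPM (-1.33, with -1.29 and -2.82 within sets), with 10 of 16 and 8 of 25 cells at 1 CPM or more. H2BC21 was nearly level at 7.14 and 6.55 CPM (-0.11).

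All H3 members were low. H3C10 was at 7.53 CPM for ESCs and 2.43 CPM for ffEPSCs (-1.32), but its ESC level rested on few cells: the median ESC was at 0.125 CPM and the highest at 64.5 CPM, against 0 and 23.2 CPM for ffEPSCs. Leaving out the highest cell of each state for each gene, an alternative added after the data were seen, H3C10 fell under the floor at 3.45 and 1.62 CPM (-0.76). H2BC5 also fell just under it (4.50 and 1.11 CPM, -1.38), while H2AC6 (-1.65) and H2BC11 (-1.60) stayed past 2-fold and H2BC12 (-1.09) came to lie past it. H3C6 was at 4.17 and 1.34 CPM (-1.14) and H3C8 at 4.11 and 0.818 CPM (-1.49), both below the floor. Of the 16 members past the floor, 5 were lower overall and within both sets that hold both states: H2AC6, H2AC12, H2BC5, H2BC12 and H3C10. With the 3 and 2 ffEPSCs of those sets, such within-set values rest on few cells. This count took differences of any size. The share of all genes that met the same rule was not computed, so it is a description only.

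The members were also grouped by their annotated 3′ ends. In 16 members, 15 of them with a stem-loop, an annotated transcript ends within 50 bases after AATAAA, the main signal for polyadenylation. This grouping was chosen after the values were seen. These 16 summed to 95.2 CPM for ESCs and 45.7 CPM for ffEPSCs (-1.04, with -0.89 and -1.27 within sets). Of them 6 passed the floor, and the 4 members at least 2-fold lower were all among these 6, with H2BC9 and H2BC21 as the others. The 37 other core members without H4C3 summed to 72.3 and 50.9 CPM (-0.50), and none of the 10 other members past the floor was 2-fold lower at the main setting. Several other settings did not keep this split. H2BC12, whose 3′ end cannot be sorted, was past 2-fold lower within set 1 (-1.78) and set 3 (-3.64), as a median over cells (-1.29), with a pseudocount of 0.1 CPM (-1.02) and without its highest cells (-1.09). H2BC11, which has the signal, was at 0.071 in set 1. In 13 members, H4C3 among them, an annotated 3′ end has no such signal. The remaining 30, H1-1 among them, cannot be sorted from this annotation. H4C11, counted among the 16, has 1 annotated transcript, which ends 6 bases after its stem-loop.

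From cell to cell the members fell into a block and a remainder. Correlations here and below are Spearman's rho of CPM across the cells of 1 library, given as descriptions: the cells share their library and preparation, and differ in depth. Over the 25 ffEPSCs the 10 pairs of linker genes had rho from 0.73 to 0.92 with a median of 0.85, and linker genes with H4C3 had 0.81 to 0.90. H2AC20 (0.69 to 0.77 with the linker genes) and H2AC12 (0.64 to 0.75) belonged with them. Pairs among the core genes past the floor other than H4C3 had a median of 0.10, and linker genes with those core genes a median of -0.0059. H3C10 went the other way, with rho from -0.56 to -0.43 with linker genes and -0.63 with H4C3. The 6 genes with an annotated AATAAA end were all outside the block, together with H2AC25 and H2BC12.

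In the 16 ESCs the same block was weaker. Linker pairs had rho from 0.17 to 0.76 with a median of 0.50, and linker genes with H4C3 from 0.059 (H1-1, which is at 0 in most of these cells) to 0.85. H2AC12 with linker genes had a median of 0.59, and pairs among the core genes other than H4C3 a median of 0.19. Whether the states differ in these correlations was not tested.

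**Figure D3:**
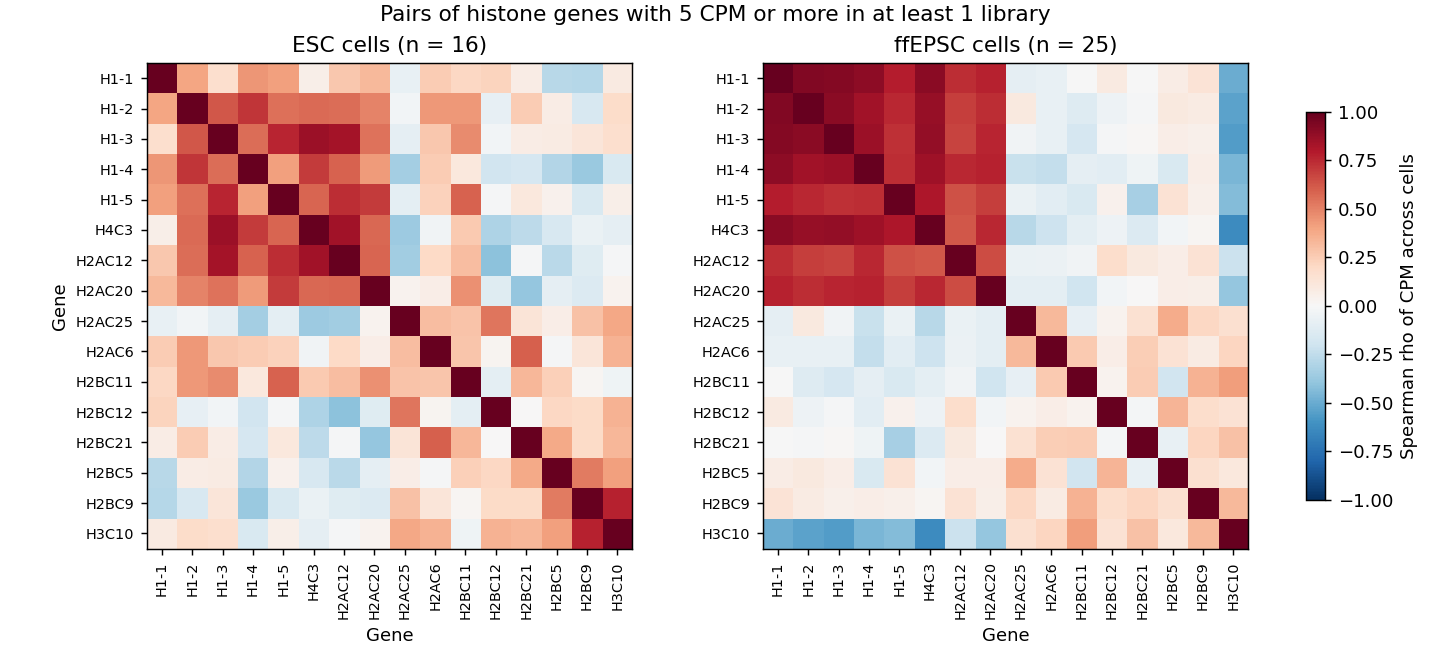
Spearman rho of CPM across cells for each pair of the 16 members past the floor of 5 CPM, in 16 ESCs (left) and 25 ffEPSCs (right); red is positive and blue negative. The linker genes, H4C3, H2AC12 and H2AC20 form a red block in ffEPSCs, with linker pairs between 0.73 and 0.92, and H3C10 is blue against them.

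The genes most like H1-1 over the 25 ffEPSCs, among 6544 genes over 20 CPM there, were H1-2 and H1-3 (both rho 0.92), H4C3 (0.90) and the ribosomal protein genes RPL41 (0.80) and RPS28 (0.79). So the 3 closest were histone genes, none of them past 2-fold between the libraries. Of the S-phase genes, 27 of 36 over 20 CPM had rho with H1-1 above zero (median 0.23), from PCNA at -0.38 to the chromatin remodeller HELLS at 0.63. Of the G2/M genes, 27 of 29 were below zero (median -0.26), down to -0.69 for CDC20, an activator of the anaphase-promoting complex. The share of all 6544 genes above or below zero was not computed, so these counts have no background beside them.

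PCNA, the sliding clamp of DNA polymerase and a usual marker of S phase, showed no positive relation to histone level over all cells of either state. It was at 364 CPM for ESCs (cells from 185 over 364 to 552) and 322 CPM for ffEPSCs (174 over 308 to 500), a log2 ratio of -0.18. The sum of the 59 members with PCNA had Pearson r 0.014 and rho -0.0088 over 16 ESCs, and r 0.12 and rho 0.12 without the 2 cells farthest from the median PCNA. Over 25 ffEPSCs r was -0.23 and rho -0.31, and without 2 such cells -0.28 and -0.36. The negative value came mostly from set 2 (rho -0.63, n = 9) and was -0.055 in set 4 (n = 11). In ESCs rho was -0.11 in set 1 (n = 7) and 0.23 in set 3 (n = 9). H1-1 alone with PCNA over ffEPSCs had r -0.34 and rho -0.38.

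With the mean of the S-phase genes, rho was 0.48 over ffEPSCs (0.42 in set 2 and 0.12 in set 4) and 0.012 over ESCs. The ESC value largely followed H4C3, which had rho -0.059 with that mean. Over ESCs the members without H4C3 had rho 0.43 with it (0.93 in set 1 and 0 in set 3). Those with an annotated AATAAA end had 0.63. With CDC20, chosen after its values were seen, r was -0.79 and rho -0.77 over ffEPSCs, and without the 2 cells farthest from its median -0.74 and -0.75. This held in set 4 (rho -0.71) and less in set 2 (-0.52). Over ESCs rho with CDC20 was -0.57, with -0.14 in set 1 and -0.78 in set 3. These values with CDC20 largely follow H4C3, which held 82.1% of member counts in ffEPSCs. H4C3 alone had rho -0.72 with CDC20 over ffEPSCs and -0.56 over ESCs. With the mean of the G2/M genes, rho of the histone sum was -0.33 over ffEPSCs and -0.45 over ESCs. For the members with an annotated AATAAA end it was -0.72 over ffEPSCs and -0.51 over ESCs, and their rho with CDC20 was -0.15 and -0.11. Total counts per cell had rho 0.25 with the histone sum over ffEPSCs and -0.44 over ESCs, and the part of depth in these relations was not tested.

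**Figure D4:**
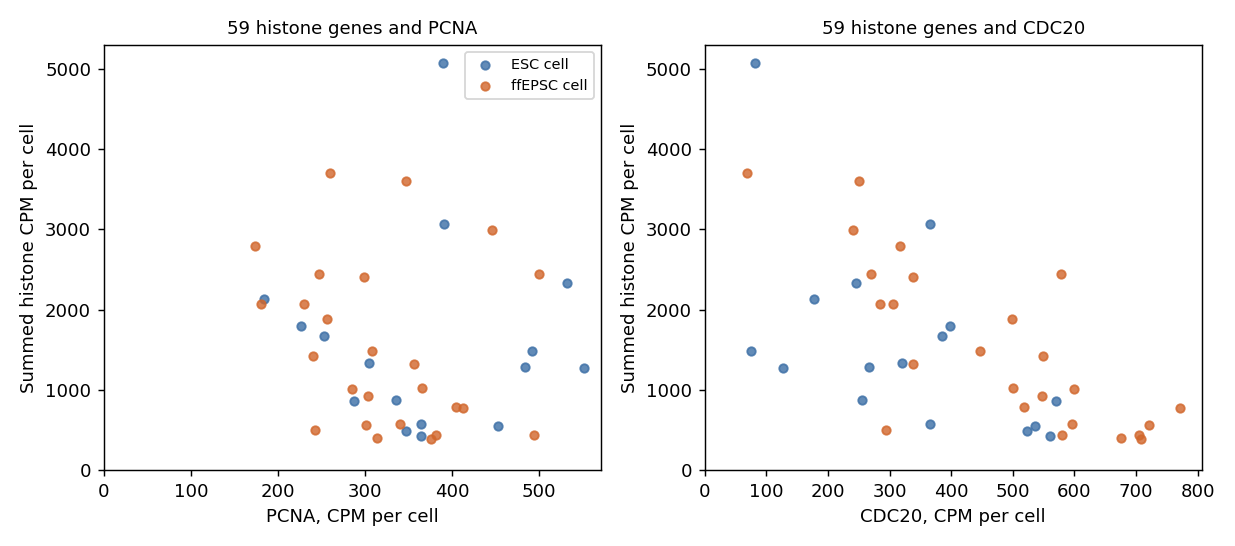
Summed CPM of the 59 histone genes per cell (y axis) against CPM of PCNA (left) and of CDC20 (right) in 16 ESCs and 25 ffEPSCs; each point is a cell. No slope is seen with PCNA in ESCs (rho -0.0088), while ffEPSCs high in CDC20 are low in this sum (rho -0.77), most of which is H4C3.

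The genes around H1-1 differed less between the libraries than H1-1 itself. H1-1 lies at chr6:26017032-26017787 by RefSeq (GRCh38.p14), as a gene without introns in the large histone cluster. The nearest analysed members, H3C1 (1.70 and 1.76 CPM), H4C1 (0.882 and 0.192 CPM) and H4C2 (0.633 and 0.0962 CPM), were low in both libraries, as were H3C2, H2AC4 and H2BC4. On the other side lie the long non-coding RNA gene LINC02980, at 2.004 and 10.2 CPM (1.90), and TRIM38, which encodes a ubiquitin ligase, at 4.76 and 17.3 CPM (1.67). LINC02980 was also higher within set 1 (3.25) and set 3 (1.90), whereas TRIM38 was so in set 1 (0.96) and not in set 3 (-0.012). From cell to cell in ffEPSCs neither followed H1-1 (rho -0.25 and 0.0038). HFE was below 1 CPM in both libraries.

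**Figure D5:**
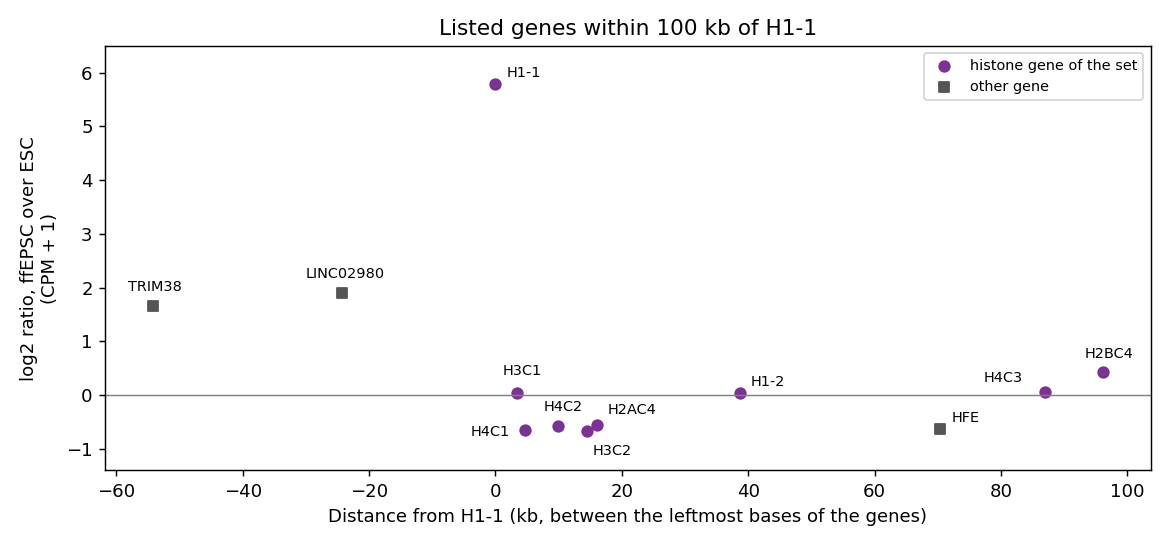
Log2 ratio of ffEPSC over ESC (CPM + 1) of the listed genes within 100 kb of H1-1 against their distance from it in kb; symbols separate histone genes from other genes. H1-1 stands at 5.78 with the other histone genes between -0.67 and 0.43, and TRIM38 and LINC02980 to the left stand at 1.67 and 1.90.

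Replacement histone genes, most of which are expressed outside S phase too and give polyadenylated mRNA, differed in both directions. Of the 9 that passed the floor, 1 was at least 2-fold higher (CENPA) and 2 lower (MACROH2A1 and MACROH2A2), with a median log2 ratio of -0.42. Among all genes past the floor, 8.3% were higher and 5.84% lower, which is also the comparison for the lists below. The linker variant H1-10 stayed low at 1.24 and 2.16 CPM.

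CENPA, the H3 variant of centromeres, was at 6.18 and 24.9 CPM (1.85, with 1.28 and 1.81 within sets). The macroH2A genes, whose proteins mark silent chromatin, were lower: MACROH2A1 at 60.7 and 27.8 CPM (-1.10) and MACROH2A2 at 43.1 and 20.03 CPM (-1.07). Neither stayed past 2-fold within both sets. MACROH2A1 was at -1.20 in set 1 and -0.78 in set 3, and MACROH2A2 at -0.87 and -0.16. H2AZ1, the most abundant gene of the list, was at 2913 and 1785 CPM (-0.71). The H3.3 genes H3-3A (1037 and 778 CPM, -0.41) and H3-3B (2046 and 1534 CPM, -0.42) were lower by less than 2-fold, and H2AX, which marks DNA breaks when phosphorylated, was at 17.7 and 25.8 CPM (0.52).

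As a list, the genes of the machinery that makes histone mRNA stood close to all genes past the floor, whose median was 0.038. Of 21 processing and transcription genes, 20 passed the floor, 1 was at least 2-fold higher and 0 lower, with 10 above zero, 10 below and a median of 0.019. The higher gene was CSTF2, the cleavage stimulation subunit CstF-64, at 68.2 and 174 CPM (1.34, with 1.44 and 1.297 within sets). HINFP was at 28.2 and 56.7 CPM (0.98), just short of 2-fold on the scale with 1 CPM added. Within sets it was past 2-fold (1.26 and 1.13). SLBP was at 126 and 86.9 CPM (-0.53), with 0.35 and -0.64 within sets. NPAT was at 76.9 and 59.4 CPM (-0.37), with -0.61 and -1.31 within sets. The scaffold SYMPK and the Sm protein gene SNRPG both had a ratio of -0.69. Within sets SYMPK was at 0.48 and -2.57, and SNRPG at -0.74 and -0.41.

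Histone chaperone genes, which carry new histones to DNA, held 21 of 23 past the floor, with 0 past 2-fold in either direction and a median of -0.18. Their largest differences were UBN1 of the HIRA complex (0.77), the H2A.Z chaperone gene ANP32E (-0.70), ASF1A (-0.68) and the CAF-1 subunit gene CHAF1B (-0.59). Of 40 S-phase genes, all past the floor, 0 were 2-fold higher and 1 lower (median -0.27): CCNE2, a cyclin of S-phase entry, at 14.1 and 3.66 CPM (-1.70). CCNE2 was nearly level within set 1 (-0.11) and at -1.35 within set 3. Of 29 G2/M genes past the floor, none was past 2-fold (median -0.091), with AURKA (0.77) and PLK1 (0.67) highest and BUB1B (-0.78) and BUB1 (-0.59) lowest.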

How the data were processed

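Gene counts of 16 ESCs and 25 ffEPSCs, 1 sample per state, were deposited by the authors as whole numbers without normalization. Alignment with HISAT2 2.2.1 and counting with featureCounts (Subread 2.0.6) are named in the submitters' processing notes, as are SAMtools 1.6, bcl2fastq, GRCh38 and T2T-CHM13. Annotation, strand use and the treatment of multiply mapped reads were not given in the sources used here. Of the non-zero counts 98.5% (ESC) and 98.4% (ffEPSC) were even, as if mates were counted singly, which makes the intervals too narrow. Amplified reads without molecular identifiers are not independent molecules.

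For each state the cells were added up and scaled to the library total (CPM), and log2 ratios used a pseudocount of 1 CPM. Members and lists were counted if they reached 5 CPM in at least 1 library, and called at 2-fold. Intervals are exact Poisson or Clopper-Pearson at 95%. No p-value was computed, because cells are not replicates. No cell was left out and doublets were not called. All columns were mapped to a sample (0 unmapped), and the repeat tables were not used. Members, lists and alternatives were chosen with earlier results of these data known. Named were all linker members, members past 2-fold, the 3 highest of each core type, genes within 100 kb of H1-1, its 5 nearest matches, 8 genes named in any case, and up to 4 per other list; H2AC12, H2BC9 and CDC20 were added after their values were seen. A gene of the replacement histone list is not reported here and was left out of that list's counts. Positions and promoters are from RefSeq (GRCh38.p14) and transcripts from GENCODE version 29, by symbol. Python 3.11.15, numpy 2.4.6, pandas 2.3.3, scipy 1.17.1 and matplotlib 3.10.9 were used. The log2 ratio, the 2-fold call and Pearson's r were tested on simulated data, and the other steps were not.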

Additional observations from a re-analysis of the deposited data

How the results depend on the processing

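No paired analysis was possible because each state was 1 sample. The summed log2 ratio of all members (0.073) reversed under 2 of 10 alternatives. It was -0.034 as a mean over cells, 0.16 as a median over cells, 0.27 within set 1, 0.97 within set 3, 0.19 without the 4 ESCs lowest in POU5F1, 0.15 without the cell highest in H1-1 of each state, 0.19 without H4C3 and -0.50 without H4C3 and H1-1, so its direction depended on the setting. H1-1 (5.78) was higher in ffEPSCs under every alternative run: 6.65 with a pseudocount of 0.1 CPM, 6.36 as a median over cells, 5.996 and 6.52 within sets 1 and 3, and 6.22 without the 4 ESCs. With the floor applied within the set, 2 members were at least 2-fold higher in set 1 and 5 in set 3, of which 1 and 3 were among the 16 past the floor overall. The 4 lower members became 1 at a floor of 20 CPM and 8 without a floor. The rank correlation of the sum with PCNA over ffEPSCs (-0.31) was -0.16 for the mean of log2 values. Over ESCs (-0.0088) it was 0.0088 for that mean, 0.12 without the 2 cells farthest from the median PCNA, 0.13 without H4C3 and -0.11 without the 4 ESCs, so it reversed under 3 of 6. The causes were not tested. A scale from the median ratio of genes moved levels by 0.0041 on the log2 scale. Alternatives without H4C3, without H1-1 in addition, or without each gene's highest cell were chosen after seeing the data. At this depth 3 counts are 0.0113 CPM in ESCs and 0.00802 CPM in ffEPSCs. The cells spread far more widely than the counting intervals, and the sources of that spread were not tested.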
